A study of Mus musculus with 16 samples.

Results

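In bone marrow derived mast cells (BMMCs), 10 genes were followed that act within cytokine and growth factor feedback, 9 of them encoding inhibitors of signalling: Spry1, Spry2, Spry4, Spred1, Spred2, Socs1, Socs2, Socs3, Cish and Pim1. They were chosen by name, as 10 of the 39179 Ensembl genes counted, with earlier results of these data known. RNA was sequenced from 16 samples, 2 for each combination of 2 genotypes and 4 treatments. BMMCs were grown from bone marrow of male C57BL/6 mice aged 8 to 10 weeks that were wild type (PEP+/+) or carried a null mutation of PEST-domain-enriched tyrosine phosphatase (PEP-/-), which is encoded by Ptpn22. All cells had been kept for 4 weeks with IL3 and stem cell factor and all were loaded with IgE. The IgE group received IgE alone (0.05 µg/ml per the labels, 3 h), and the methods of the study give a higher concentration. The IgE DNP group also received dinitrophenyl albumin (DNP, 200 ng/ml, 1 h), the antigen that cross-links receptor-bound IgE. The IgE DEX group received IgE and the glucocorticoid dexamethasone (DEX, 100 nM, 8 h), and the IgE DNP DEX group received all of these agents. The study calls its replicates biological, and the sources do not say how many mice or cultures each sample came from, so p-values measure the spread between these samples only.

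Sprouty proteins (Spry1, Spry2, Spry4) and their SPRED relatives restrain the RAS-ERK cascade below receptor tyrosine kinases such as KIT, and SPRED1 does so by bringing the RAS inactivator neurofibromin to the membrane. SOCS proteins and CIS, the product of Cish, bind phosphorylated cytokine receptors or Janus kinases (JAKs) through an SH2 domain and recruit a ubiquitin ligase through the SOCS box, which limits JAK-STAT signalling. Several of these genes are themselves targets of the pathway they restrain, Cish being a textbook STAT5 target. Pim1, a serine/threonine kinase, is also induced by STAT5 and was followed with them as a cytokine-responsive gene. In mast cells KIT ligand, IL3 and the IgE receptor all feed into these pathways.

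Promoter windows of the members were searched for the palindrome recognised by STAT factors, and the stretches that hold it are shown. They belong to Cish and Socs3, classical STAT targets that were among the members that rose after DNP. Pim1, also induced by STAT5 and raised after DNP, had no match. RefSeq windows on GRCm38.p6, from 250 bases before to 50 bases after the start of a gene, were used for 8 members, without Spry4 and Socs2. The letters TTCNNNGAA, which read the same on both strands, occurred in 2 of the 9 windows of these 8 members and in 8.3% of all 32851 windows. They are printed 5′ to 3′ on the strand of the gene, with each match in capitals.
Cish, chr9:107296654-107296683, plus strand: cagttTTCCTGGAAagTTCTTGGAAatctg
Socs3, chr11:117969507-117969525, minus strand: cagccTTCTTAGAAgggag
Cish held 2 matches that begin at bases 1 and 12 of its RefSeq transcript, within the first exon of the longer GENCODE transcript and upstream of the start of the next coding one. The single match of Socs3 begins 154 bases before its RefSeq start (base -154), in an intron of a non-coding GENCODE transcript and upstream of the coding one. On either strand, the CRE letters TGACGTCA (1.79% of all windows), the AP-1 letters TGANTCA (7.81%), the ETS letters CCGGAAGT (3.89%) and the glucocorticoid receptor half-site AGAACA (19% of all windows) were in 0 of the 8 members' windows. A match is a description of the letters, and nothing follows from their absence in this short window.

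The reads assigned to genes numbered 8612531 to 22143526 per sample. Expression is given as CPM, the count of a gene scaled to a common library size with TMM factors, and levels are compared between genes only as RPKM, which divides CPM by the exon length of the gene in kilobases. This length joins all annotated exons (6419 bases for Cish, 9531 for Socs2) and can exceed that of the transcripts expressed, which lowers the RPKM. The samples come in 2 sets, titled with numbers or with letters, and each set holds 1 sample of every condition. The sets differed across the transcriptome, also in reads outside genes, which made up 4.69 to 7.18% of reads in numbered and 8.35 to 10.98% in lettered samples. In PEP+/+ IgE DNP DEX the set difference was less like the rest, with a correlation of 0.562 over genes with the mean set difference of the other conditions, against 0.786 to 0.845 elsewhere. Ptpn22 had 130 to 2799 reads in PEP+/+ and 0 to 55 in PEP-/- samples. All 11 mast cell markers were detected, with a summed level of 63205 to 103766 CPM, while macrophage, neutrophil, eosinophil, erythroid, lymphocyte and fibroblast lists summed to at most 11.3 CPM. C1qa (macrophage), Epx (eosinophil) and Ppbp (megakaryocyte) were at 0, while other genes of these lists were detected. Among them were Adgre1 (macrophage, 1.05 to 6.38 CPM), Siglecf (eosinophil, 0.173 to 8.06 CPM) and Gp9 (megakaryocyte, 0.808 to 2.42 CPM). The megakaryocyte list reached 3921 CPM nearly entirely through Itga2b. The basophil pair Mcpt8 and Prss34 summed to 19.8 to 122.1 CPM in PEP+/+ samples. In PEP-/- samples the pair summed to 30 to 54.9 CPM, within the PEP+/+ range. The mast cell sum was 63205 to 72300 CPM after IgE and 80702 to 103766 CPM after IgE DNP DEX. The part of this shift, or of the basophil genes, in the results was not tested.

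Changes were tested with edgeR's quasi-likelihood test, fitting the 8 conditions over all 16 samples, and a gene was called at a Benjamini-Hochberg adjusted p under 0.05. Treatment effects are means over both genotypes. Because same-set samples deviated together, values from a fit with the set as a block are printed where they change the call of a member. Of the 10 members, 9 passed the filter on low counts and were tested among 13305 genes. Spry4 did not: it had 0 reads in 11 samples and 1 to 4 reads in each of the other 5, and 3 reads, the limit that a count of 0 allows, correspond to 0.126 to 0.391 CPM in these libraries.

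After IgE alone the members spanned a wide range per length. Pim1 was highest at 50.1 ± 24.5 RPKM (SD, n = 4, both genotypes), followed by Spred1 at 33.5 ± 9.66 RPKM, and the ranges of these 2 overlapped. Socs1 (10.9 ± 8.38 RPKM), Cish (10.4 ± 5.61 RPKM), Socs2 (6.06 ± 1.24 RPKM) and Spred2 (5.74 ± 0.989 RPKM) formed an overlapping middle group. Below them, without overlap, came Spry2 at 2.55 ± 0.294 RPKM, Socs3 at 0.841 ± 0.553 RPKM and Spry1 at 0.129 ± 0.0673 RPKM. Spry1 rested on 2 to 7 reads per sample in this state, so its fold changes are imprecise. The plot of CPM by sample shows all values of the 9 tested members.

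**Figure D1:**
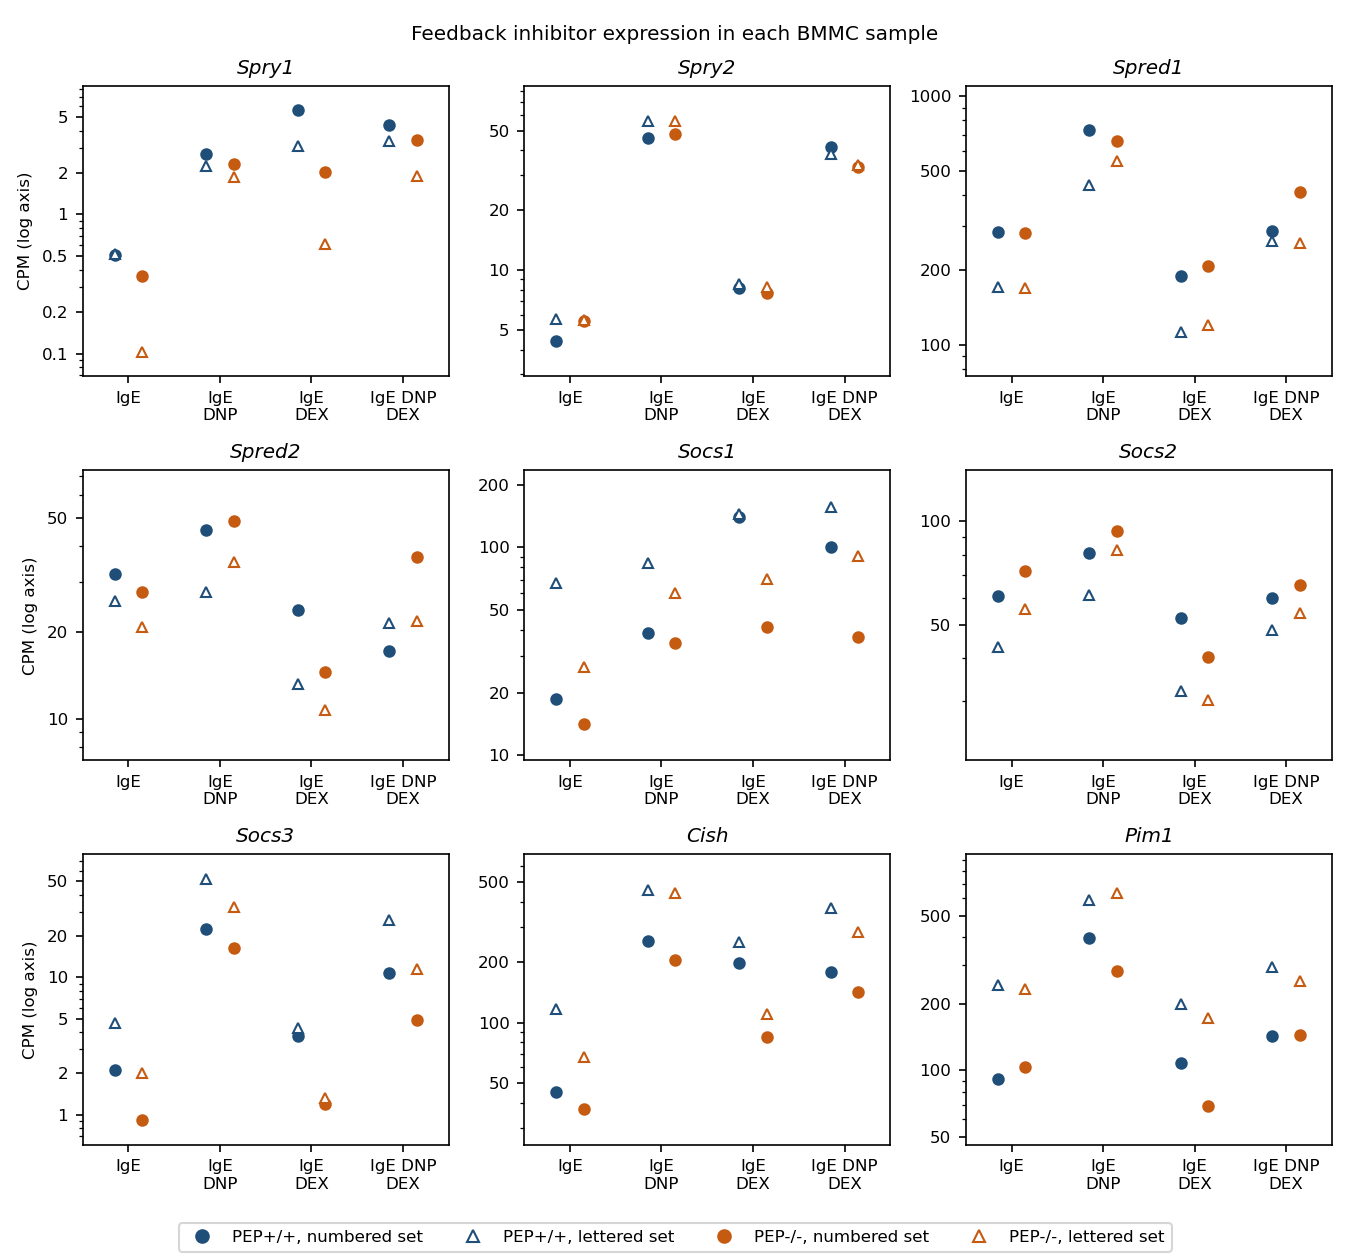
CPM on a log axis (vertical) of 9 feedback genes in each of 16 BMMC samples, by treatment (horizontal), with genotype as colour and sample set as marker. Spry2 separates by the presence of DNP and shows little set difference, while Socs1, Socs3, Cish and Pim1 lie higher in the lettered set and Spry1, Socs1, Socs3 and Cish lie lower in PEP-/- than in PEP+/+ samples of the same set.

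The first comparison asked how antigen changes these genes in cells without DEX. Antigen raised 6 of the 9 tested members, by 2.62-fold (Spred1) to 13.4-fold (Socs3), and lowered none, where 9.07% of all genes tested rose. The median log2 fold change was 1.5 over the 9 members and 0 over all genes. The samples of the IgE and IgE DNP groups did not overlap for these 6 genes and overlapped for Spred2, Socs1 and Socs2. How many of all genes show no overlap was not counted. Whether a rise after DNP reflects more RNA per cell or a change in the cells present cannot be told apart in bulk samples.

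Spry2, which interferes with RAS-ERK activation downstream of receptor tyrosine kinases, lies at chr14:105891947-105896819 on the minus strand of GRCm38 (ENSMUSG00000022114) and was the member whose log2 fold change had the smallest SE. After IgE its level was 4.41 and 5.72 CPM in PEP+/+ and 5.55 and 5.61 CPM in PEP-/- BMMCs, the numbered sample being given first here and below. After IgE DNP it was 46.2 and 56 CPM in PEP+/+ and 48.5 and 56.2 CPM in PEP-/- BMMCs. The groups are far apart, with a log2 fold change of 3.28 (SE 0.14, adjusted p = 1.42e-07, edgeR). All 4 same-set, same-genotype pairs rose, by 3.09 to 3.35 on the log2 scale. Spry1 (chr3:37639947-37644598, plus strand), a related inhibitor, stood at 0.514 and 0.52 CPM in PEP+/+ and 0.364 and 0.103 CPM in PEP-/- BMMCs after IgE. It reached 2.74 and 2.25 CPM in PEP+/+ and 2.3 and 1.87 CPM in PEP-/- BMMCs after IgE DNP. This was a log2 fold change of 2.75 (SE 0.48, adjusted p = 0.00227, edgeR) between a group with 2 to 7 reads and a group with 20 to 34 reads.

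Of the SPRED genes, Spred1 (chr2:117121374-117182279, plus strand) was called and Spred2 (chr11:19924375-20024026, plus strand) was not. Spred1 went from 285.7 and 171.2 CPM in PEP+/+ and 282.6 and 170.1 CPM in PEP-/- BMMCs to 732.6 and 437.7 CPM in PEP+/+ and 660.3 and 548.3 CPM in PEP-/- BMMCs. Its lowest sample after DNP lay above its highest sample before, at a log2 fold change of 1.39 (SE 0.29, adjusted p = 0.00743, edgeR). Spred2 ranged from 20.9 to 31.9 CPM after IgE and from 27.7 to 48.7 CPM after IgE DNP, with a log2 fold change of 0.57 (SE 0.26, adjusted p = 0.18, edgeR). It passed only with the set as a block (0.55, SE 0.15, adjusted p = 0.00874, edgeR).

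Socs3 (chr11:117966079-117970047, minus strand), whose product binds JAKs and the gp130 receptor chain, had the highest fold change among the tested members. It was at 2.13 and 4.68 CPM in PEP+/+ and 0.911 and 2.01 CPM in PEP-/- BMMCs after IgE. After IgE DNP it was at 22.7 and 52.4 CPM in PEP+/+ and 16.5 and 32.6 CPM in PEP-/- BMMCs. In both genotypes the lettered sample was the higher one, and the log2 fold change was 3.74 (SE 0.48, adjusted p = 0.000283, edgeR). Cish (chr9:107296026-107302784, plus strand), whose product competes at STAT5 docking sites, rose from 45.3 and 117.4 CPM in PEP+/+ and 37.1 and 67.3 CPM in PEP-/- BMMCs to 255.1 and 458 CPM and to 205.3 and 443.2 CPM, respectively. Its log2 fold change was 2.38 (SE 0.42, adjusted p = 0.0024, edgeR), and it is the gene with 2 STAT-type matches shown above. Genes on the opposite strand overlap exons of Spry1, Cish and Pim1, and the sources used here do not state whether strand was used in counting, so reads of such a pair may not be told apart. The overlapping pseudogene Gm17040 (Cish) had 6 to 72 counted reads per sample, the antisense gene Gm26885 (Pim1) 1 to 10, and Gm17041 (Cish) 0.

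Pim1 (chr17:29490753-29496112, plus strand) was at 91.2 and 244.1 CPM in PEP+/+ and 103.6 and 234.7 CPM in PEP-/- BMMCs after IgE. It was at 399 and 589.9 CPM in PEP+/+ and 283.2 and 633.3 CPM in PEP-/- BMMCs after IgE DNP. All 4 pairs rose, yet the adjusted p lay at the threshold (log2 fold change 1.5, SE 0.47, adjusted p = 0.0489, edgeR). Leaving out 1 of the 16 samples at a time kept this call only without the lettered PEP+/+ IgE, either PEP-/- IgE DEX or the numbered PEP-/- IgE DNP sample, with adjusted p between 0.0364 and 0.197 over all 16 fits, and the set as a block gave 1.57 (SE 0.13, adjusted p = 2.52e-07). Socs1 (chr16:10782240-10785536, minus strand), an inhibitor of JAK kinase activity, ranged from 14.2 to 67.5 CPM after IgE and from 34.7 to 84.4 CPM after IgE DNP, and Socs2 (chr10:95385362-95417180, minus strand), which limits growth hormone signalling, from 43.1 to 71.7 and from 61.2 to 94 CPM. Neither passed (log2 fold change 0.87, adjusted p = 0.244, and 0.46, adjusted p = 0.154, edgeR), and both passed with the set as a block (0.92, adjusted p = 0.00247, and 0.47, adjusted p = 0.000961, edgeR). With that block all 9 tested members rose, against 18.6% of all genes.

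**Figure D2:**
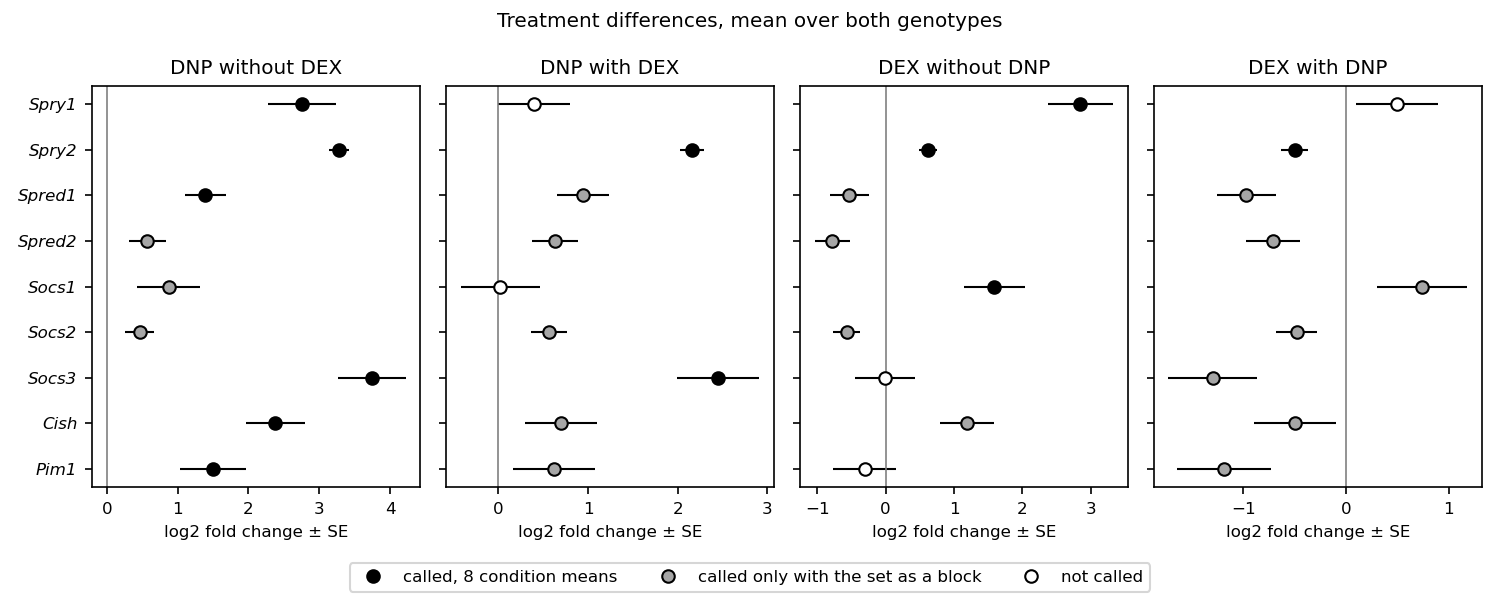
Log2 fold change ± SE (horizontal) of 9 feedback genes (rows) in 4 treatment comparisons, as means over both genotypes from edgeR. Black points were called without a set term, grey points only with the set as a block, and white points by neither; DNP without DEX lies to the right of 0 for every gene shown, and DEX with DNP lies to the left for 7 of 9.

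The next comparison asked what DEX does to these genes without antigen. DEX raised Spry1 by 7.19-fold, Socs1 by 3-fold and Spry2 by 1.53-fold, 3 of 9 members, where 5.40% of all genes rose, and no member fell. The median log2 fold change of the 9 members was -0.01, and that of all genes was 0. Spry1 was at 5.6 and 3.11 CPM in PEP+/+ and 2.02 and 0.61 CPM in PEP-/- BMMCs after IgE DEX. Its lowest value belongs to the lettered PEP-/- sample with 6 reads, and each of the 4 samples lay above all IgE samples (log2 fold change 2.85, SE 0.48, adjusted p = 0.00294, edgeR). Spry2 was at 8.14 and 8.54 CPM in PEP+/+ and 7.73 and 8.24 CPM in PEP-/- BMMCs. This modest shift exceeded the spread of the samples (log2 fold change 0.62, SE 0.13, adjusted p = 0.013, edgeR). The call was lost, with adjusted p of up to 0.0647, without the numbered PEP+/+ IgE sample or the lettered PEP-/- IgE sample.

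Socs1 was at 140.1 and 144 CPM in PEP+/+ and 41.6 and 70.5 CPM in PEP-/- BMMCs after IgE DEX, against 18.7 and 67.5 CPM in PEP+/+ and 14.2 and 26.5 CPM in PEP-/- BMMCs after IgE. Both PEP+/+ samples and the lettered PEP-/- sample exceeded all IgE samples, while the numbered PEP-/- sample lay within their range. The log2 fold change was 1.59 (SE 0.45, adjusted p = 0.0499, edgeR), a call that held, of 16 fits with 1 sample left out, only without the lettered PEP+/+ IgE or either PEP-/- IgE DNP DEX sample (adjusted p from 0.0171 to 0.174). Cish was at 198.7 and 252.4 CPM in PEP+/+ and 84.8 and 110.2 CPM in PEP-/- BMMCs, which was higher than in the same-set, same-genotype IgE sample in each of 4 pairs but did not pass (log2 fold change 1.19, SE 0.4, adjusted p = 0.105, edgeR). With the set as a block Spry1, Spry2, Socs1 (1.73, adjusted p = 1.85e-05) and Cish (1.29, adjusted p = 1.35e-05) rose, where 12.9% of all genes did. In the same fit Spred1 (-0.53, adjusted p = 0.00365), Spred2 (-0.8, adjusted p = 0.00115) and Socs2 (-0.58, adjusted p = 0.000268, edgeR) fell, where 13.8% of all genes did. Socs3 and Pim1 had log2 fold changes of -0.01 and -0.31 and passed in neither fit.

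The third comparison asked what DEX does in antigen-activated cells. Of the 9 members 1 passed, Spry2, which fell to 0.707 of its level, where 4.99% of all genes fell. The median log2 fold change was -0.5 over the members and -0.01 over all genes. Spry2 was at 41.4 and 38.5 CPM in PEP+/+ and 32.9 and 34 CPM in PEP-/- BMMCs after IgE DNP DEX, all below the 46.2 to 56.2 CPM of the IgE DNP samples. The log2 fold change was -0.5 (SE 0.13, adjusted p = 0.0281, edgeR). This call was lost in 7 of the 16 fits that left out 1 sample, with adjusted p of at most 0.127. Those are the fits without either sample of PEP+/+ IgE DNP DEX, PEP-/- IgE DNP DEX or PEP-/- IgE DNP, or without the lettered PEP+/+ IgE DNP sample. Without the numbered or the lettered sample of PEP+/+ IgE DNP DEX, the condition whose set difference stood apart, the log2 fold change was -0.51 (adjusted p = 0.0664) and -0.46 (adjusted p = 0.0767, edgeR).

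Most other members were lower with DEX in each of the 4 pairs, without a call in the main fit. How many of all genes show this pattern was not counted. Spred1 was at 287.3 and 260.9 CPM in PEP+/+ and 412.6 and 257.4 CPM in PEP-/- BMMCs, and all 4 samples lay below the lowest IgE DNP sample (log2 fold change -0.97, SE 0.29, adjusted p = 0.056, edgeR). Socs3 was at 10.7 and 26 CPM in PEP+/+ and 4.93 and 11.5 CPM in PEP-/- BMMCs (log2 fold change -1.3, SE 0.43, adjusted p = 0.0783, edgeR). Each sample had less Socs3 than its partner without DEX, although the ranges of the groups overlapped. Pim1 was at 143.6 and 293.5 CPM in PEP+/+ and 144.4 and 253.7 CPM in PEP-/- BMMCs (log2 fold change -1.19, SE 0.46, adjusted p = 0.14, edgeR).

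Cish was at 178.1 and 372.3 CPM in PEP+/+ and 141.3 and 281.3 CPM in PEP-/- BMMCs (log2 fold change -0.5, SE 0.4, adjusted p = 0.527, edgeR). Spred2, at 17.2 to 36.5 CPM, and Socs2, at 48.2 to 65.3 CPM, had log2 fold changes of -0.71 and -0.48, which did not pass. Socs1 differed in sign from these, at 100.1 and 156.3 CPM in PEP+/+ and 37 and 90.3 CPM in PEP-/- BMMCs (log2 fold change 0.74, SE 0.44, adjusted p = 0.362, edgeR). With the set as a block 7 members fell (Spry2, Spred1, Spred2, Socs2, Socs3, Cish and Pim1, adjusted p from 5.52e-06 to 0.0157, edgeR), where 17.4% of all genes fell. Socs1 rose in that fit (0.74, adjusted p = 0.0111), where 15.9% of all genes rose, and Spry1 passed in neither (0.5, SE 0.4, adjusted p = 0.532, edgeR).

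The response to antigen was also measured in DEX-treated cells. DNP raised Spry2 by 4.48-fold (log2 fold change 2.16, SE 0.13, adjusted p = 2.93e-06) and Socs3 by 5.46-fold (2.45, SE 0.46, adjusted p = 0.00556, edgeR), 2 of 9 members, where 7.19% of all genes rose. The members' median log2 fold change was 0.63, against -0.02 over all genes. Both calls held in all 16 fits with 1 sample left out, and without the numbered or the lettered PEP+/+ IgE DNP DEX sample the values were 2.16 and 2.21 for Spry2 and 2.72 and 2.07 for Socs3. Spred1 did not pass (0.94, SE 0.29, adjusted p = 0.057), although its samples after IgE DNP DEX lay above all IgE DEX samples, which were at 190 and 112.4 CPM in PEP+/+ and 208.5 and 120.1 CPM in PEP-/- BMMCs. With the set as a block 7 members rose, where 18.4% of all genes did, the exceptions being Spry1 (0.43, adjusted p = 0.164) and Socs1 (-0.07, adjusted p = 0.818, edgeR).

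Whether the antigen response itself differed with DEX was tested as an interaction. Spry2 was the 1 member called, with a DNP response lower by 1.12 on the log2 scale with DEX than without (interaction -1.12, SE 0.19, adjusted p = 0.0346, edgeR), where 0.271% of all genes were called lower. Its 4 pairwise DNP differences were 3.09 to 3.35 without DEX and 2.02 to 2.33 with DEX, and they did not overlap. Of 16 fits with 1 sample left out, the call held only without the lettered PEP+/+ IgE sample, with adjusted p between 0.0484 and 0.145. Without the numbered or the lettered PEP+/+ IgE DNP DEX sample it was -1.11 (adjusted p = 0.0854) and -1.07 (adjusted p = 0.102, edgeR). The block gave 5 members called lower, where 1.07% of all genes were: Spry1 (-2.35, adjusted p = 0.00856), Cish (-1.8, adjusted p = 0.000322), Socs3 (-1.43, adjusted p = 0.0218), Spry2 (-1.12, adjusted p = 0.00105) and Pim1 (-0.93, adjusted p = 0.0142, edgeR). Without the block Spry1 was at -2.35 (SE 0.62, adjusted p = 0.369) and Cish at -1.68 (SE 0.57, adjusted p = 0.846, edgeR). Spry1, Spry2, Cish and Socs1 were higher after DEX without DNP in 4 of 4 pairs each, and the share of all genes with this pattern was not counted. The interaction values of Spred2 and Socs2 were 0.06 and 0.09.

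**Figure D3:**
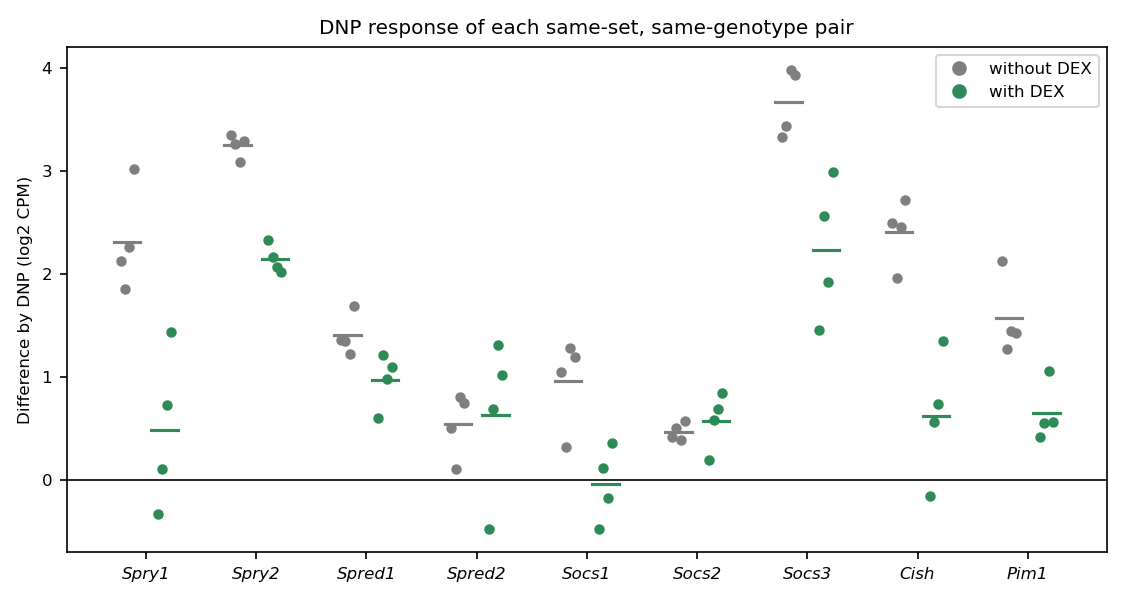
Difference in log2 CPM between samples with and without DNP (vertical) for 9 feedback genes (horizontal), with 1 point per same-set, same-genotype pair, without DEX in grey and with DEX in green, and bars at the mean of 4 pairs. For Spry2 the grey points lie between 3.09 and 3.35 and the green points between 2.02 and 2.33, whereas for Spred2 and Socs2 the colours overlap.

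The comparison of genotypes asked how these genes depend on PEP. Averaged over the 4 treatments, 0 of 9 members passed, where 1.16% of all genes were called lower in PEP-/- BMMCs, and at an unadjusted p under 0.05 edgeR counted 1884 of all genes. Spry1, Socs1, Socs3 and Cish were lower in PEP-/- than in PEP+/+ samples in 8 of 8 same-set pairs each. The share of all genes with this pattern was not counted. The pairs repeat the same 2 sets over 4 treatments, so they may not be 8 independent comparisons. The pairwise log2 differences ran from -1.6 to -0.46 for Socs3, from -1.75 to -0.16 for Socs1, from -2.11 to -0.24 for Spry1 and from -1.23 to -0.05 for Cish. The fitted genotype differences were -1.16 for Socs3 (SE 0.32, adjusted p = 0.101), -0.95 for Socs1 (SE 0.31, adjusted p = 0.176), -0.93 for Spry1 (SE 0.31, adjusted p = 0.181) and -0.59 for Cish (SE 0.28, adjusted p = 0.384, edgeR). Fitted with the block these 4 were called lower, where 9.64% of all genes were, at adjusted p of 0.000165, 0.000511, 0.00993 and 0.00175 in the same order. DESeq2 called Socs3 (adjusted p = 0.0106) and Socs1 (adjusted p = 0.0455).

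The other members did not pass. Spry2 had a genotype difference of -0.04 (SE 0.09), Spred1 of 0.11 (SE 0.2), Spred2 of 0 (SE 0.15), Socs2 of 0.13 (SE 0.14) and Pim1 of -0.15 (SE 0.32) on the log2 scale without the block, and none of the 5 passed with it. For Spry2 the 8 pairs lay between -0.33 and 0.32, of which 5 were lower in PEP-/-, and Socs2 was higher in 6 of 8 pairs.

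Within single treatments 2 samples stood against 2. In IgE, IgE DNP, IgE DEX and IgE DNP DEX alike no member was called between the genotypes, where 0.00752% of all genes, 1 gene in each, was called. In the IgE DEX group PEP-/- values were at 1.19 and 1.32 against 3.78 and 4.29 CPM for Socs3, and at 84.8 and 110.2 against 198.7 and 252.4 CPM for Cish. Fitted with the block these 4 genes passed in IgE DEX, where 0.338% of all genes were called lower: Socs3 (log2 fold change -1.58, adjusted p = 0.0491), Socs1 (-1.45, adjusted p = 0.0379), Spry1 (-1.65, adjusted p = 0.0469) and Cish (-1.21, adjusted p = 0.026, edgeR). In the other treatments none passed with the block. Whether the treatment responses differed between the genotypes was tested as interactions for DNP without DEX, DEX without DNP and DEX with DNP. None of the 9 members passed in any of these, and 0% of all genes did, with or without the block. At an unadjusted p under 0.05 edgeR counted 30, 40 and 95 genes in the same order and DESeq2 called 0, so a larger genotype difference in IgE DEX than in other treatments was not shown.

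**Figure D4:**
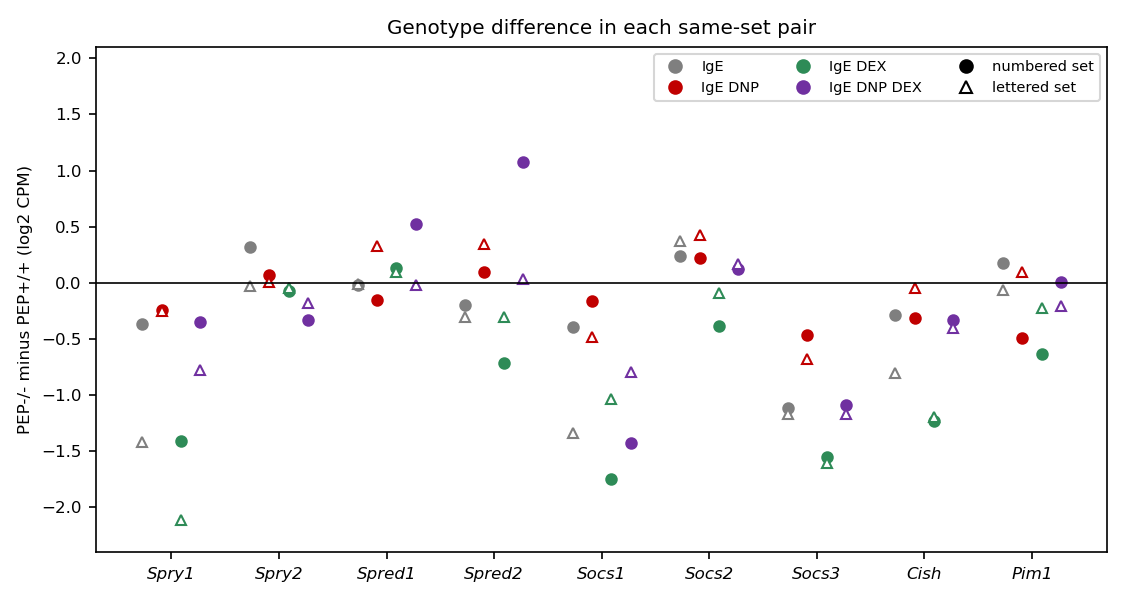
Difference in log2 CPM between PEP-/- and PEP+/+ samples of the same set and treatment (vertical) for 9 feedback genes (horizontal), with treatment as colour and set as marker. All 8 points lie below 0 for Spry1, Socs1, Socs3 and Cish, while those of Spry2 lie between -0.33 and 0.32.

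The difference between the replicates of a condition had a common direction for most members. Over all genes this difference had an SD of 0.702 to 0.863 on the log2 scale in the 8 conditions. The share of all genes with a common direction was not counted. Pim1 was higher in the lettered than in the numbered sample in 8 of 8 conditions, with a median difference of 1.1 on the log2 scale, and so were Socs3 (1.06), Cish (0.92) and Socs1 (0.85). Spred1 (median -0.74) and Socs2 (-0.38) were lower in 8 of 8 conditions, and Spred2 (-0.45) and Spry1 (-0.59) in 7 of 8. Spry2 differed least between the sets, with a median of 0.08. Each set holds every condition once, so the sets are balanced over the comparisons. The labels do not name what sets them apart, and the part of the share of reads outside genes, which differs between the sets, was not tested.

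**Figure D5:**
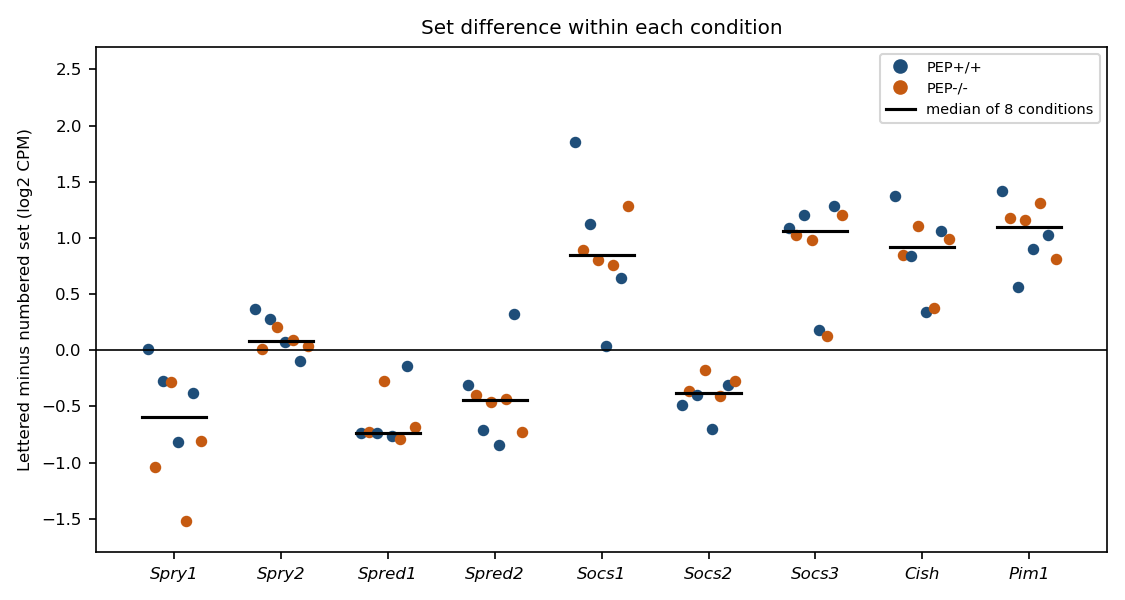
Difference in log2 CPM between the lettered and the numbered sample of a condition (vertical) for 9 feedback genes (horizontal), with genotype as colour and a bar at the median of 8 conditions. Socs1, Socs3, Cish and Pim1 lie above 0 in all 8 conditions, Spred1 and Socs2 below 0 in all 8, and the median of Spry2 is 0.08.

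Of 8 further Sprouty, SPRED, SOCS and PIM genes 7 were counted and tested (Spred3, Socs4, Socs5, Socs6, Socs7, Pim2 and Pim3), and DNP without DEX called 0 of them, at a median log2 fold change of 0.12, and 1, Socs7 (0.58, adjusted p = 0.0143, edgeR), with the set as a block. Among all 13305 genes 2216 were called, and 5042 with the block. DEX raised Pim3, a kinase related to Pim1, without DNP (1.02, SE 0.16, adjusted p = 0.00163) and with DNP (0.85, SE 0.16, adjusted p = 0.00531, edgeR), where Pim1 was at -0.31 and -1.19. Pim2 was lower in PEP-/- BMMCs over all treatments (-1.23, SE 0.17, adjusted p = 0.0102, edgeR), at 7.98 to 19.4 CPM against 18.1 to 47.3 CPM in PEP+/+ over all treatments. Pim3 passed for the genotype average only with the set as a block (-0.48, adjusted p = 0.00284, against 0.0555 without it, edgeR).

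The 21 RAS-ERK pathway components tested had a median log2 fold change of 0.05 after DNP without DEX, and the RAS activator gene Rasgrp1 fell (-1.72, adjusted p = 0.000127, edgeR). Of 15 tested ERK-responsive immediate genes 13 rose after DNP and 1 fell (Etv5, -0.95), at a median of 3.59, with Fosb (7.6), Egr2 (6.36) and Egr3 (6.2) in the lead. Among all 13305 genes 1207 rose and 1009 fell. With DEX present DNP raised 12 and lowered 1 of these immediate genes, at a median of 2.41, where 957 of all genes rose and 721 fell. DEX in activated cells lowered 2 of the 15, Phlda1 (-2.47, adjusted p = 0.0126) and the receptor kinase inhibitor Errfi1 (-1.3, adjusted p = 0.00817, edgeR), at a median of -0.74. The block gave 8 that fell and 1 that rose. Of all genes 4.99% fell without the block, and 17.4% fell and 15.9% rose with it.

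Among 18 JAK-STAT components 5 rose and 2 fell after DNP (6 and 4 with the set as a block), at a median of 0.07, with the kinase Jak2 (1.65, adjusted p = 0.000366) and the common gamma chain Il2rg (1.13, adjusted p = 0.00148) raised most. Among all 13305 genes 1207 rose and 1009 fell after DNP, and 2473 and 2569 with the block. DEX without DNP raised 5 and lowered 1 (5 and 2 with the block), the gp130 gene Il6st leading (3.13, adjusted p = 0.000626) and the IL3 receptor subunit Csf2rb2 falling (-0.83, adjusted p = 0.00914, edgeR). Of 11 STAT5 target genes outside the members 5 rose and 2 fell after DNP (median 0.81), Bcl6 most (2.15, adjusted p = 8.85e-05, edgeR). After DEX without DNP 3 rose and 0 fell (median 0.39), Il2ra most (3.11, adjusted p = 0.000142, edgeR). With the set as a block the counts after DEX were 5 and 1. Among all 13305 genes 718 rose and 529 fell after DEX without DNP, and 1716 and 1832 with the block. Gfi1, a repressor of transcription, fell after DNP (-1.06, adjusted p = 0.00128) and rose after DEX (1.26, adjusted p = 0.000495, edgeR).

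Over the 8 condition means of log2 CPM the members fell into several patterns, given as Pearson correlations that describe these means only. The closest pair of members was Spred1 and Pim1 (r = 0.95), followed by Spred2 and Socs2 (0.92), Spry2 and Socs3 (0.92), and Spry1 with both Cish (0.91) and Socs1 (0.91). The lowest values were those of Socs1 with Socs2 (-0.36) and with Spred2 (-0.35). Among other genes with a mean of at least 1 CPM, those most like Spry2 were Rela (0.998), Sqstm1 (0.997) and Herpud1 (0.996). Spred1 was most like Tnfsf9 (0.998), Acsl4 (0.996) and Nedd9 (0.995), and Spred2 most like Api5 (0.978), Actr2 (0.974) and Uba6 (0.966). For Spry1 they were Slfn2 (0.977), Rasa2 (0.974) and Metrnl (0.97).

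Socs3 was most like Ppif (0.989), 6430571L13Rik (0.989) and Actn4 (0.987), and Cish most like Dnaja4 (0.986), Serpinb2 (0.974) and Upf1 (0.972). Pim1 was most like Gm6264 (0.995), Hexdc (0.99) and Ppard (0.99), Socs2 most like Inpp1 (0.981), Cnep1r1 (0.979) and Bsn (0.977), and Socs1 most like Klf2 (0.953), Rpn2 (0.945) and Prelid2 (0.938). These condition means share libraries and set, and no shared control follows from them.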

How the data were processed

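RNA of 16 BMMC samples was measured by paired-end sequencing of stranded mRNA libraries. Reads were aligned by the authors to GRCm38 with TopHat2 and counted per gene with HTSeq, and the authors deposited raw counts, 1 table per sample, without normalization. The strand setting of the counting is not given in the sources used here. DESeq2 was used by the authors for normalization and testing, which are not part of these files. Rows that name no gene were left out: 4.69 to 10.98% of reads outside genes, 1.9 to 2.5% ambiguous and 21.45 to 37.76% aligned to several places. Gene names, loci and exon lengths came from GENCODE M21 (37607 of 39179 identifiers, 95.99%). Promoter windows came from RefSeq (GRCm38.p6).

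From these counts, CPM were computed with TMM factors, and edgeR 4.0.16 (R 4.3.3; glmQLFit, glmQLFTest) was fitted to all samples with 8 condition means, after filterByExpr with a minimum count of 10. The pooled coefficient of variation was 0.312, and 0.133 with the sample set as a block. The titles number 1 sample of each condition and letter the other. Deviations of same-set samples from their condition means correlated between conditions at 0.453 to 0.799 in all 28 pairs of conditions. Same-set samples were therefore taken as pairs in the pairwise differences and in the fit with the block. The main fit has no set term and does not use the pairing. Log2 CPM for pairwise differences and correlations used a prior count of 2.

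Alternatives were DESeq2 1.42.0, its size factors, no filter, a minimum of 10 counts in each sample, a fit of only the conditions compared, the block, a test against a log2 fold change of 1, each sample left out, and each set alone. Named are all members, up to 3 called genes per direction of each other list in a treatment comparison, and the 3 genes most like each member whose condition means span at least 1 on the log2 scale. Some results for the RAS-ERK list are not reported here. The members and lists were chosen with earlier results of these data known. Reads carry no molecular identifiers, so limits cover counting error only. Depth was 8612531 to 22143526 reads per sample.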

Additional observations from a re-analysis of the deposited data

Results flagged for a closer look

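The level of Spry2 in PEP+/+ IgE replicate 1, the numbered sample, was 4.41 CPM and lay apart from the other IgE samples, which were at 5.55 to 5.72 CPM. On the log2 CPM scale its gap was 0.884 of the range of the 4 samples, above Dixon's critical value for 4 samples, and it was the 1 flag among 36 groups of 4 samples tested, where chance flags about 1 in 20 groups. Without this sample the rise of Spry2 by DEX without DNP lost its call.

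The response of Spry2 to DNP differed with DEX, with an interaction of -1.12 on the log2 scale (SE 0.19, adjusted p = 0.0346, edgeR). Spry2 was the only one of the 9 tested members called for this interaction in the main fit. With 1 sample left out the interaction ran from -1.22 to -1.02, and the call held only without the lettered PEP+/+ IgE sample.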

How the results depend on the processing

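With the set as a block (the pairing of same-set samples) the members called numbered 9 for DNP without DEX against 6, 7 for DEX without DNP against 3, 8 for DEX with DNP against 1, 7 for DNP with DEX against 2, 5 for the DNP by DEX interaction against 1, and 4 for the genotype average and 4 for the genotype in IgE DEX against 0 each. It changed no call in the other comparisons. DESeq2 gave 5 for DEX without DNP, 3 for DEX with DNP, 3 for DNP with DEX (Spred1 added, adjusted p = 0.0153) and 2 for the genotype average. Over all genes it called 1620 of 14613, 1887 of 14165, 2228 of 14165 and 668 of 12819 in the same order. Without a filter 5 were called for DEX with DNP, 5 for DNP with DEX, 2 for the interaction, 3 for the genotype average and 3 for the genotype in IgE DEX. Over all genes this fit called 1788, 1880, 107, 472 and 40 in the same order. At least 10 counts in every sample, which leaves 8 members, gave 1 for DEX without DNP and 2 for DEX with DNP. Only the conditions compared gave 1 and 0 for these 2 comparisons. Over all genes the first of these settings called 1024 and 1220, and the second 976 and 805. The test against a log2 fold change of 1 gave 1 for DEX without DNP, 0 for DEX with DNP, 1 for DNP with DEX and 0 for the interaction. Over all genes it called 233, 206, 213 and 8. Leaving out 1 sample gave 5 to 6 calls for DNP without DEX, 1 to 3 for DEX without DNP, 0 to 1 for DEX with DNP, 2 to 3 for DNP with DEX and 0 to 1 for the interaction. The cause was not tested, except that left-out samples and compared conditions mean fewer samples in the fit.

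Signs turned as follows. Socs3 for DEX without DNP was 0.11 with the block, 0.03 with only the conditions compared and -0.24 to 0.35 with 1 sample left out. Socs1 for DNP with DEX was -0.07 with the block and -0.36 to 0.29 with 1 sample left out. Spred2 for the genotype average was 0.01 with DESeq2, with its size factors and with at least 10 counts, and -0.11 to 0.12 with 1 sample left out. Leave-one-out ranges also crossed or touched 0 for Pim1 (-0.7 to 0.13, DEX without DNP), Spred2 (-0.12 to 0.31) and Socs2 (-0.07 to 0.29) in the interaction, and Spry2 (-0.08 to 0.01), Spred1 (0 to 0.22) and Pim1 (-0.35 to 0.07) in the genotype average. Within each set alone, with no test, every called treatment value of a member kept its sign. Calls were gained for Spred1 (DEX with DNP) without the lettered PEP+/+ IgE DNP sample, for Spred1 (DNP with DEX) without either PEP+/+ IgE DNP sample and for Socs2 (DNP with DEX) without the numbered PEP+/+ IgE DEX sample, with lowest adjusted p of 0.0486, 0.0472 and 0.0498 (edgeR).

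Over all genes the calls went from 2216 to 5042 with the block for DNP without DEX, from 1247 to 3548 for DEX without DNP, from 1418 to 4429 for DEX with DNP, from 1678 to 5007 for DNP with DEX, from 44 to 209 for the interaction and from 212 to 2310 for the genotype average. With 1 sample left out they were 1390 to 2251, 845 to 1269, 852 to 1317, 927 to 1604, 12 to 27 and 57 to 203 in the same order, the lowest without PEP-/- IgE DNP replicate 2, PEP-/- IgE replicate 2, PEP-/- IgE DNP replicate 2, PEP+/+ IgE DEX replicate 2, PEP-/- IgE DEX replicate 1 and PEP+/+ IgE DEX replicate 1. In single treatments 1 gene became 225 (IgE), 248 (IgE DNP), 75 (IgE DEX) and 3 (IgE DNP DEX). The test against a log2 fold change of 1 called 412, 233, 206, 213, 8 and 1 genes in the order of the first 6. Only the conditions compared called 805 for DEX with DNP and 953 for DNP with DEX. DESeq2 called 97 for the interaction, 668 for the genotype average and 30, 37, 16 and 2 in the single treatments. No filter called 107, 472 and 21, 39, 40 and 22 in the same order. For the genotype interactions with DNP, with DEX and with DEX after DNP no filter called 3, 2 and 24. At least 10 counts called 0 in each single treatment, and only the conditions compared 0 in IgE, IgE DNP and IgE DEX. Spry4 was too shallow to test, and Spry1 rests on few reads without DNP and DEX.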

Other observations

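The cytokine genes listed here encode ligands of JAK-STAT receptors, the pathway that SOCS proteins restrain. Of 9 tested cytokine genes 8 rose after DNP without DEX (9 with the set as a block) and 0 fell, at a median log2 fold change of 4.67, with Csf2 (8.83, SE 0.84, adjusted p = 0.000202), Il9 (8.32, SE 1.83, adjusted p = 0.0268) and Il13 (6.7, SE 0.34, adjusted p = 3.66e-07, edgeR) raised most. DEX in antigen-activated cells lowered 8 of the 9, at a median of -3.47, against -0.5 over the 9 tested feedback genes and -0.01 over all genes. The lowest were Il9 (-7.06, adjusted p = 0.0499), Il5 (-5.28, adjusted p = 0.02) and Csf2 (-4.43, adjusted p = 0.00204, edgeR). In DEX-treated cells DNP raised 4 of the 9 (6 with the set as a block), at a median of 1.27, among them Il13 (5.23, adjusted p = 5.2e-06, edgeR). Of all genes 9.07% rose after DNP without DEX (18.6% with the block), and 7.19% in DEX-treated cells (18.4% with the block). DEX in antigen-activated cells lowered 4.99% of all genes.

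Of 7 genes in a list of SOCS-box ligase and CBL partners, DNP without DEX raised Siah2 (0.96, adjusted p = 0.00108) and lowered the E3 ligase gene Cblb (-0.7, adjusted p = 0.038, edgeR). Among all 13305 genes 1207 rose and 1009 fell. DEX raised Cblb, without DNP (1.19, adjusted p = 0.00362) and with it (1.15, adjusted p = 0.00461, edgeR). Of 7 glucocorticoid reference genes 5 rose with DEX without DNP and 0 fell, at a median of 2.92, where 5.40% of all genes rose. The MAP kinase phosphatase gene Dusp1 (4.78, adjusted p = 2.32e-07), Fkbp5 (3.26, adjusted p = 4.98e-06) and Tsc22d3 (3.13, adjusted p = 1.64e-06, edgeR) were in the lead. Dusp1 also rose after DNP without DEX (4.02, adjusted p = 4.43e-07), and DEX raised it further in activated cells (1.85, adjusted p = 5.87e-05, edgeR), where Spry2 fell. DEX in activated cells raised 5 of the 7 and lowered 1, Sgk1 (-1.93, adjusted p = 0.0011, edgeR), where 754 of all genes rose and 664 fell.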
